A study of Mus musculus with 6 samples.

Results

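Genes of airway secretory epithelium, 9 in all, were followed through the adult mouse brain libraries: Scgb1a1, Scgb3a2, Muc5b, Muc4, Muc16, Bpifa1, Cyp2f2, Sec14l3 and Pigr. They were chosen by name, with earlier results of these data known, and the 9 genes are 9 of the 53801 rows of the deposited count table and 9 of the 23975 genes with a summed count of at least 10. RNA came from one side of sagittally cut brains of C57BL/6 mice about 70 weeks old, with 3 libraries from Bahd1+/+ animals (Bahd1-WT) and 3 from Bahd1-/- animals (Bahd1-KO). Each library came from a separate animal, both genotypes had the same strain and age, and no other treatment was labelled. Bahd1 encodes a chromatin protein that promotes gene silencing, and the comparison asks how its loss alters brain transcripts.

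Club cells are secretory cells that line the conducting airways of the lung. They release secretoglobins, metabolize inhaled chemicals through cytochrome P450 enzymes, and share the airway surface with cells that make mucins and antimicrobial proteins. Brain tissue has no airway lining, and its own epithelial layers are the ependyma and the choroid plexus. In bulk tissue, fewer cells of a type and less RNA per cell cannot be told apart.

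Depth lay between 42297150 and 93557948 counts per library. Levels are given as CPM, the counts of a gene scaled to a common library size, on library sizes scaled with edgeR's TMM method. A count of 0 allows up to 3 counts, which is 0.0315 to 0.069 CPM depending on the library. The targeted gene Bahd1 was counted 1383, 844 and 1099 times in the Bahd1-WT libraries and 0, 14 and 1 times in the Bahd1-KO libraries, as labelled. Genes of neurons, glia and microglia, 9 in all, summed to between 9428 and 11240 CPM in the 6 libraries, so the labelled tissue was present in each.

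The 3 Bahd1-WT brains held these transcripts at very different levels, high in replicate 1, lower in replicate 2 and low in replicate 3, and the 3 Bahd1-KO brains held them at low levels. Summed over the 9 genes, the level was 77.5, 22.1 and 3.61 CPM in Bahd1-WT replicates 1, 2 and 3. It was 2.30, 2.31 and 3.02 CPM in Bahd1-KO replicates 1, 2 and 3. Replicate 1 of Bahd1-WT alone held 69.9% of the summed level of all 6 libraries, replicate 2 held 19.9%, and replicate 3 held 3.26%. The summed level of Bahd1-WT replicate 3 was therefore nearer to the Bahd1-KO libraries than to the other Bahd1-WT libraries.

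**Figure D1:**
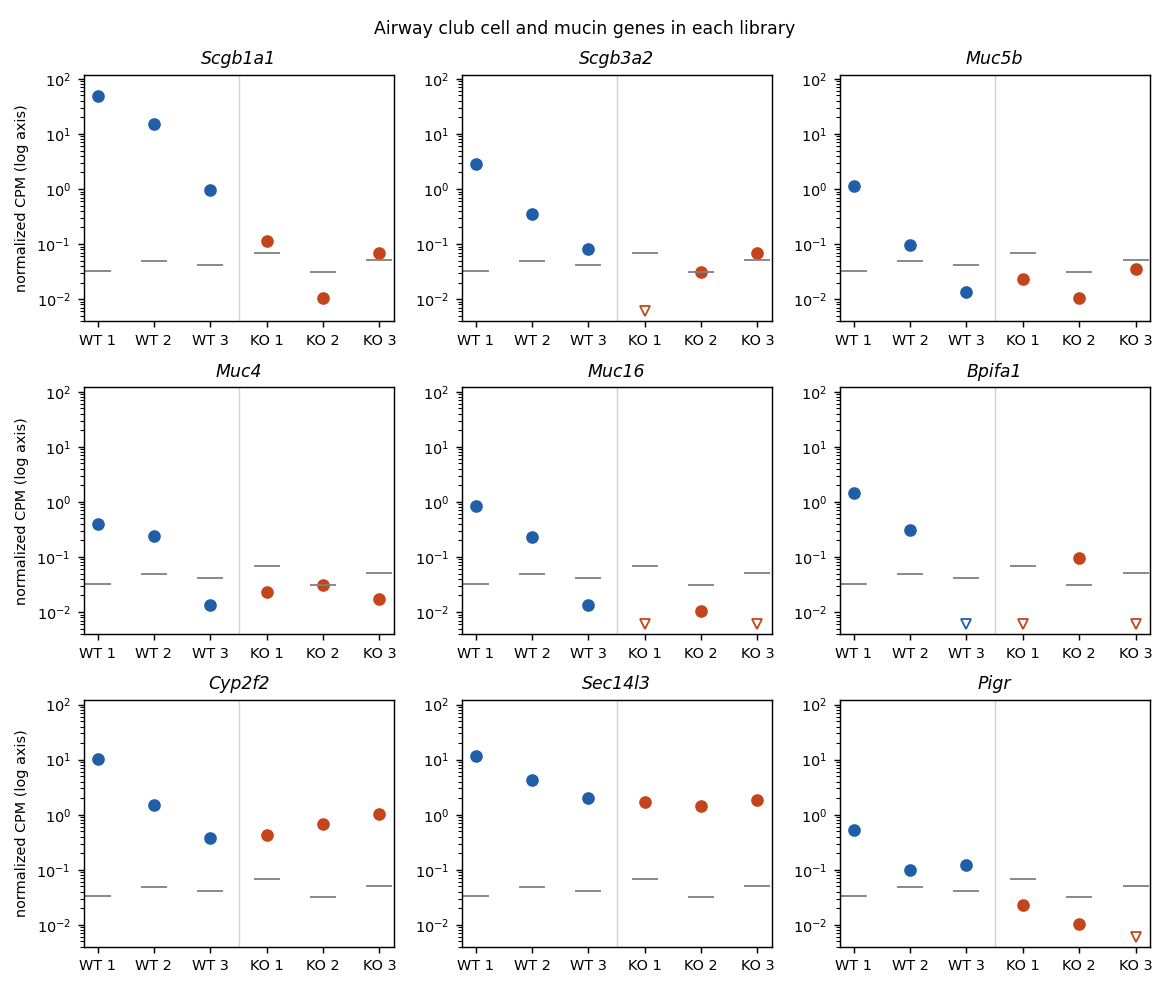
Normalized CPM of each gene in the 3 Bahd1-WT (blue) and 3 Bahd1-KO (orange) libraries, on a log axis. Grey dashes mark the level of 3 counts and open triangles at the bottom mark a count of 0. In 8 of the 9 genes the highest point is Bahd1-WT replicate 1 and Bahd1-WT replicate 3 is the lowest of its genotype.

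Promoters of 6 of the 9 genes had an entry in the RefSeq table of build GRCm38.p6, and those of Scgb1a1, Scgb3a2 and Muc5b had none. The 3 shown are of the members with the most counts among those 6 and stop at the annotated start of the gene. Capitals mark the 1 match found to CTCAAG, a motif bound by the lung factor NKX2-1, here on the opposite strand and 213 bases before the start. The regions are chr11:4064603-4064840 (plus strand) for Sec14l3, chr7:27119705-27119908 (plus strand) for Cyp2f2 and chr2:154142630-154142879 (plus strand) for Bpifa1.
Sec14l3: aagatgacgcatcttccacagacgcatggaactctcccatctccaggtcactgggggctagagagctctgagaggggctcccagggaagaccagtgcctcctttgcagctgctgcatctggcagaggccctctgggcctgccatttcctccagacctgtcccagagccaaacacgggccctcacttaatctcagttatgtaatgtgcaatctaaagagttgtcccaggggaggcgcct
Cyp2f2: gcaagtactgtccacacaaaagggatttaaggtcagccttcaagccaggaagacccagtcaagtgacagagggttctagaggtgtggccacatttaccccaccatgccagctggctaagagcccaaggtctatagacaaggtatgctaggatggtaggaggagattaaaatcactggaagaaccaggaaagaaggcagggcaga
Bpifa1: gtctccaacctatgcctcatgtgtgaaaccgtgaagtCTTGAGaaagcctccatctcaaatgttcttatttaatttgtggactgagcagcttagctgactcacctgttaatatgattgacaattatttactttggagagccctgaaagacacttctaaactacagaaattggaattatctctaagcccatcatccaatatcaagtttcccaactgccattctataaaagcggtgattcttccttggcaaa

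Within 250 bases before the start and on both strands, CTCAAG was found in 1 of the 6 promoters and in 13.3% of 32851 promoters in the table. The forkhead motifs TGTTTAC and TGTTTGC were in 0 of 6 and in 7.29% of all promoters, and the C/EBP motif TTGCNNAA was in 0 of 6 and in 9.56%. The matches are a description of letters and say nothing on binding.

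Scgb1a1 (ENSMUSG00000024653, chr19:9083636-9087958 on the minus strand of GRCm38) encodes the main secretory protein of club cells. In the Bahd1-WT brains it was counted 4448, 922 and 69 times (replicates 1, 2 and 3, the order used throughout), and in the Bahd1-KO brains 5, 1 and 4 times. As CPM these were 48.6, 14.9 and 0.941 for Bahd1-WT, against 0.115, 0.0105 and 0.0691 for Bahd1-KO. Every Bahd1-KO library was below every Bahd1-WT library, and the Bahd1-WT libraries themselves spanned 51.7-fold (95% exact interval 40.7 to 66.5). The mean was 21.5 ± 24.5 CPM (SD, n = 3) in Bahd1-WT, against 0.0648 ± 0.0523 in Bahd1-KO. The log2 fold change was -8.59 (SE 1.52), with an adjusted p of 0.0634 in edgeR's quasi-likelihood test with Benjamini-Hochberg adjustment over all genes tested. Bahd1-WT replicate 3, the lowest of its genotype, was 18.5-fold (9.48 to 40.3) the pooled Bahd1-KO level after scaling to library size. Intervals of this kind cover counting error between the libraries named, not differences between conditions.

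Scgb3a2 (ENSMUSG00000038791), another secretoglobin of the airways, was counted 264, 22 and 6 times in Bahd1-WT, against 0, 3 and 4 times in Bahd1-KO. The CPM were 2.885, 0.356 and 0.0818 for Bahd1-WT, against 0, 0.0315 and 0.0691 for Bahd1-KO. The genotypes did not overlap, but Bahd1-WT replicate 3 was 2.30-fold the pooled Bahd1-KO level with an interval that includes 1 (0.638 to 7.99). The log2 fold change was -4.92 (SE 1.37, adjusted p = 0.0664, edgeR's quasi-likelihood test with Benjamini-Hochberg adjustment).

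The mucins are long glycoproteins that form or line the airway mucus layer. Muc5b (ENSMUSG00000066108, chr7:141839070-141873084), a gel-forming mucin, had 102, 6 and 1 reads in Bahd1-WT against 1, 1 and 2 in Bahd1-KO. Muc4 (ENSMUSG00000079620, chr16:32735886-32782391), a membrane-bound mucin, had 36, 15 and 1 reads in Bahd1-WT against 1, 3 and 1 in Bahd1-KO. Muc16 (ENSMUSG00000109564, chr9:18495455-18674530 on the minus strand), the other membrane-bound one, had 77, 14 and 1 reads in Bahd1-WT against 0, 1 and 0 in Bahd1-KO. The single count of Bahd1-WT replicate 3, 0.0136 CPM, lay within the Bahd1-KO range for Muc5b, below it for Muc4 and above it for Muc16 by less than counting error (2.68-fold the pooled Bahd1-KO level, 0.0342 to 210). The genotypes overlapped for Muc5b and Muc4, and for Muc16 they could not be told apart at this depth without the other Bahd1-WT libraries. Fitted log2 fold changes were -4.23 (SE 1.47) for Muc5b, -3.05 (SE 1.02) for Muc4 and -5.78 (SE 1.57) for Muc16. The adjusted p values were 0.0991, 0.0918 and 0.0650 in that order in edgeR's quasi-likelihood test with Benjamini-Hochberg adjustment. In normalized CPM, Bahd1-WT replicate 1 exceeded replicate 3 by 81.7-fold (14.4 to 3260) for Muc5b, 28.9-fold (4.86 to 1171) for Muc4 and 61.7-fold (10.8 to 2469) for Muc16.

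Bpifa1 (ENSMUSG00000027483, chr2:154142880-154149219), a secreted host-defence protein of the upper airways, was counted 131, 19 and 0 times in Bahd1-WT. Its Bahd1-KO counts were 0, 9 and 0. Bahd1-KO replicate 2 was therefore above Bahd1-WT replicate 3, and the genotypes overlapped. Bahd1-WT replicate 1 was at least 35.0-fold above replicate 3, taking the latter at 3 counts. The log2 fold change was -3.76 (SE 1.47, adjusted p = 0.124, edgeR's quasi-likelihood test with Benjamini-Hochberg adjustment).

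Pigr (ENSMUSG00000026417, chr1:130826684-130852249), the receptor that carries IgA and IgM across epithelia, was counted 49, 6 and 9 times in Bahd1-WT, with 1, 1 and 0 counts in Bahd1-KO. It was the 1 member whose lowest Bahd1-WT library was not replicate 3. Replicates 2 and 3 did not differ beyond counting (0.792-fold, 0.232 to 2.49), and the genotypes did not overlap. The log2 fold change was -4.44 (SE 1.04, adjusted p = 0.0634, edgeR's quasi-likelihood test with Benjamini-Hochberg adjustment).

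Cyp2f2 (ENSMUSG00000052974, chr7:27119909-27133660), a cytochrome P450 of club cells that acts on inhaled compounds, was measured in every library. Its counts were 935, 93 and 28 for Bahd1-WT, against 19, 66 and 59 for Bahd1-KO. The CPM were 10.2, 1.51 and 0.382 for Bahd1-WT, against 0.437, 0.693 and 1.02 for Bahd1-KO. All 3 Bahd1-KO libraries were above Bahd1-WT replicate 3, which was 0.521-fold (0.335 to 0.786) the pooled Bahd1-KO level. Against Bahd1-KO replicate 1 alone the ratio was 0.874 (0.471 to 1.66), within counting error. Within Bahd1-KO, replicate 3 was 2.33-fold (1.37 to 4.15) replicate 1. The log2 fold change was -2.49 (SE 0.99, adjusted p = 0.128, edgeR's quasi-likelihood test with Benjamini-Hochberg adjustment). Without Bahd1-WT replicate 1 it was -0.38 (SE 0.58), and without replicates 1 and 2 it was 0.91 (SE 0.59), so its direction turned.

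Sec14l3 (ENSMUSG00000054986, chr11:4064841-4077736), a lipid-binding protein of the SEC14-like family, had the most even levels. Its counts were 1048, 267 and 150 in Bahd1-WT and 73, 135 and 105 in Bahd1-KO, and the CPM were 11.45, 4.32 and 2.045 against 1.68, 1.42 and 1.81. The genotypes did not overlap, yet Bahd1-WT replicate 3 was 1.29-fold (1.05 to 1.57) the pooled Bahd1-KO level. The Bahd1-KO libraries did not differ from each other beyond counting. The log2 fold change was -1.87 (SE 0.55, adjusted p = 0.0707, edgeR's quasi-likelihood test with Benjamini-Hochberg adjustment), and without Bahd1-WT replicate 1 it was -0.96 (SE 0.36).

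Per kilobase of the longest transcript, Scgb1a1 stood first in Bahd1-WT replicate 1 at 102 CPM per kb, followed by Cyp2f2 at 5.475, Sec14l3 at 4.26, Scgb3a2 at 3.43 and Bpifa1 at 1.29. Pigr was at 0.139, Muc5b at 0.0745, Muc4 at 0.0349 and Muc16 at 0.0331 CPM per kb. In Bahd1-KO replicates 1, 2 and 3 Sec14l3 stood first, at 0.625, 0.528 and 0.675 CPM per kb. Cyp2f2 was at 0.234, 0.371 and 0.546 CPM per kb there, and Scgb1a1 at 0.241, 0.0221 and 0.145. The order of these in replicate 1 rests on 5 Scgb1a1 counts and was within counting error. The make-up of the sum differed accordingly. Scgb1a1 was 62.7%, 67.6% and 26.0% of the summed CPM in Bahd1-WT replicates 1, 2 and 3, and 5%, 0.455% and 2.29% in Bahd1-KO. Sec14l3 was 14.8%, 19.6% and 56.6% in Bahd1-WT and 73.0%, 61.4% and 60% in Bahd1-KO.

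**Figure D2:**
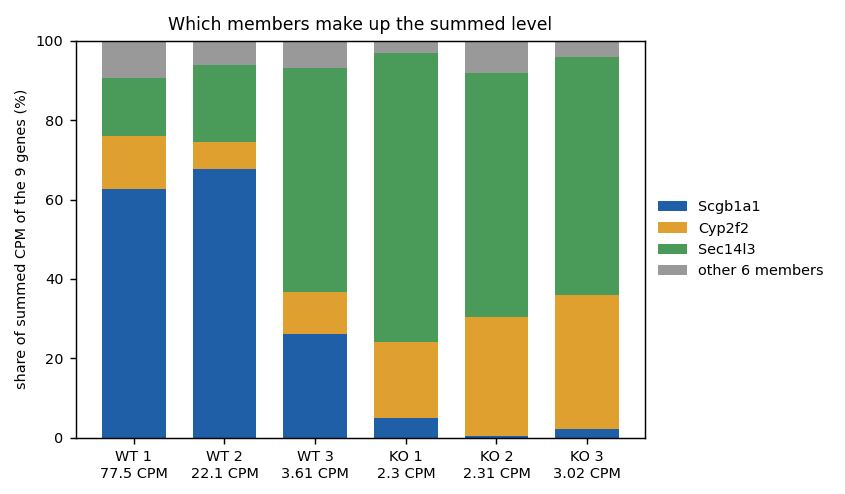
Share of the summed CPM of the 9 genes taken by Scgb1a1, Cyp2f2, Sec14l3 and the other 6, in each library, with the summed CPM below each bar. Scgb1a1 leads in Bahd1-WT replicates 1 and 2, and Sec14l3 leads in Bahd1-WT replicate 3 and all Bahd1-KO libraries.

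Across single Bahd1-WT libraries, all 9 genes were higher in replicate 1 than in replicate 3 by at least 4-fold, which 4.38% of all genes tested were. The order replicate 1, then 2, then 3 was kept by 8 of 9 genes, all but Pigr, against 16.4% of all genes tested. The median ratio of replicate 1 to replicate 3 was 35.3 over the 9 genes and 1.04 over all genes tested. Between replicates 1 and 2 the ratio ranged from 1.62 for Muc4 to 11.5 for Muc5b, and 8 of 9 exceeded 1 beyond counting, as did 27.7% of all genes tested.

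Between Bahd1-WT replicate 3 and the pooled Bahd1-KO libraries, 3 of 9 genes were higher in Bahd1-WT beyond counting (Scgb1a1, Pigr and Sec14l3), Cyp2f2 was lower, and 5 had an interval that included 1. Of all genes tested 32.1% were higher and 31.6% lower in that comparison, so the 3 of 9 is near the share of all genes. For Bahd1-WT replicate 2 all 9 were above the pooled Bahd1-KO level beyond counting, as were 33.4% of all genes tested, from 2.06-fold for Cyp2f2 to 294-fold for Scgb1a1. Scgb3a2, Muc5b, Muc4, Muc16, Bpifa1 and Pigr among them passed the filter on low counts only with their Bahd1-WT counts. The 9 of 9 is thus a description. Every Bahd1-KO library was below every Bahd1-WT library in 5 of 9 genes, where 19.3% of all genes tested had that order. Of these 5, Scgb3a2, Muc16 and Pigr passed the filter on low counts only with their Bahd1-WT counts. Bahd1-WT replicate 3 was above each single Bahd1-KO library beyond counting for Scgb1a1 alone. For Scgb3a2 and Muc16 no such gap exceeded counting error. Sec14l3 there was 1.13-fold (0.873 to 1.46) Bahd1-KO replicate 3, and Pigr was 5.34-fold (0.740 to 234) Bahd1-KO replicate 1. The count is therefore a description. The count was 3 of 9 after an offset for GC content and length, where the share of all genes was 14.8%. Without Bahd1-WT replicate 3, the lowest library of its genotype for 8 of the 9, it was 9 of 9, where the share of all genes was 25.2%. Leaving out a library can only keep or raise this count, so it too is a description.

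**Figure D3:**
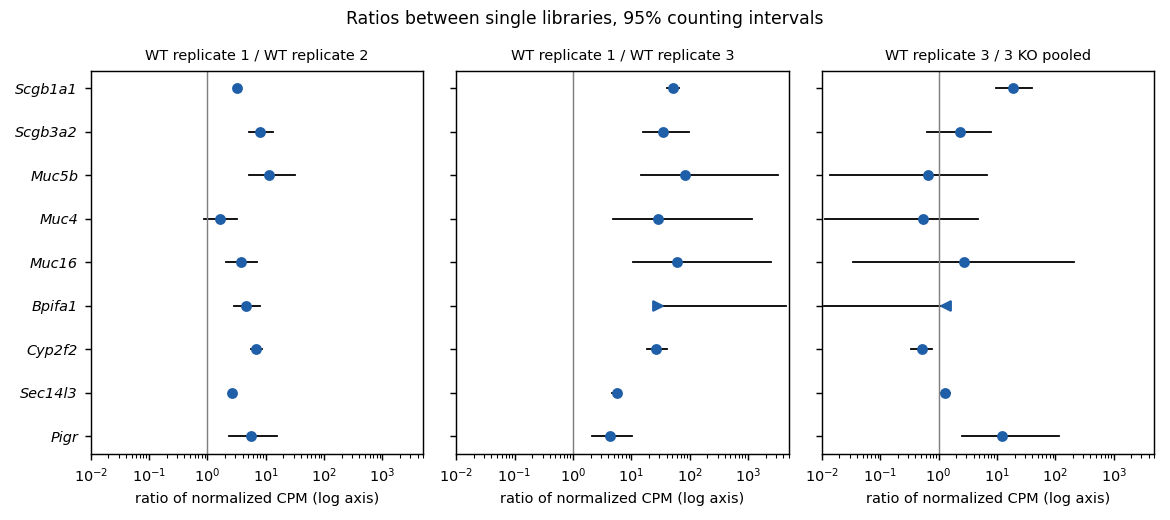
Ratio of normalized CPM between single libraries for each gene, with 95% exact counting intervals on a log axis. Circles are ratios, and arrowheads stand at the finite end of the interval where a library had 0 counts. Replicate 1 exceeds replicate 3 of Bahd1-WT for all 9 genes, and the intervals for replicate 3 against the pooled Bahd1-KO libraries include 1 for 5.

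None of the 9 genes (0 of 9) was called in edgeR's quasi-likelihood test, at an adjusted p under 0.05 and at least 2-fold, and 0.00417% of all genes tested were called lower, which is Bahd1 itself. All 9 had an unadjusted p under 0.05 and were lower, where 12% of all genes tested were. All 9 passed the filter on low counts, but the Bahd1-KO counts of Scgb3a2, Muc5b, Muc4, Muc16, Bpifa1 and Pigr summed to between 1 and 9 and would not have passed it alone. DESeq2 called 7 of 9 lower without a prior, against 1.06% of all genes, and 6 with the normal prior, against 0.909%. Keeping every gene with at least 1 count, edgeR called 9 of 9 (0.863% of all), total counts called 2 (0.492%), and the replicate block called Scgb1a1 (0.0209%). The block with a GC and length offset also called Scgb1a1 (0.0292%), as did leaving out Bahd1-WT replicate 3 (0.00853%), and leaving out Bahd1-KO replicate 1 called 3 (2.26%).

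Without Bahd1-WT replicate 1, edgeR's quasi-likelihood test called 0 of 9, and 0.00% of all 23070 genes tested were called lower, Bahd1 itself not among them, so the count of 0 is no result about the 9 genes. Of the 9, 5 were lower at an unadjusted p under 0.05, where 6.13% of all genes were, but Scgb3a2, Muc16 and Pigr among the 5 passed the filter only with their Bahd1-WT counts, so this count is a description. The median log2 fold change went from -4.23 with all 6 libraries to -2.23, while it was -0.06 over all genes tested with all 6. Single values without replicate 1 were -7.13 for Scgb1a1, -4.12 for Muc16, -3.21 for Pigr, -2.55 for Scgb3a2, -2.23 for Muc4, -1.82 for Bpifa1 and -1.28 for Muc5b. Without replicates 1 and 2, an alternative added after the data were seen, 5 genes passed the filter, and Pigr and Scgb3a2 did so only with the counts of the Bahd1-WT library left, so the number lower is no result. Scgb1a1 was then at -4.05 (SE 0.76, adjusted p = 0.580) and Pigr at -3.37 (SE 1.10), while Scgb3a2 at -1.18 (SE 1.13) and Sec14l3 at -0.33 (SE 0.43) lay near 0. The lone Bahd1-WT library is assumed to vary like the Bahd1-KO ones there.

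**Figure D4:**
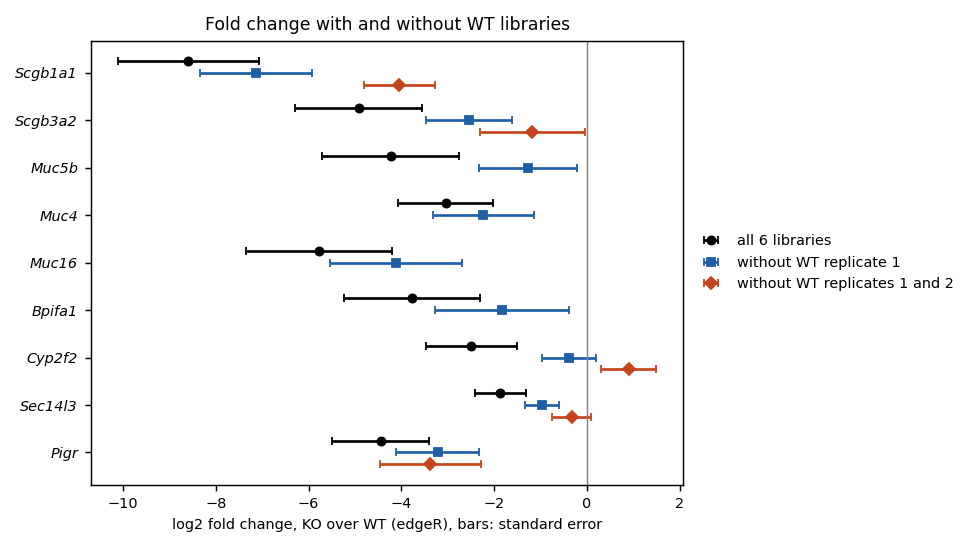
Log2 fold change of Bahd1-KO over Bahd1-WT in edgeR for each gene, with bars of 1 standard error, using all 6 libraries (black), without Bahd1-WT replicate 1 (blue) and without replicates 1 and 2 (orange). Of the 5 genes with all 3 values, Cyp2f2 crosses 0, Scgb1a1, Scgb3a2, Sec14l3 and Pigr stay below 0, and Scgb3a2 and Sec14l3 come near it without replicates 1 and 2.

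Lists of related genes were counted in the same fit, where edgeR called 0 genes of any list. Of all genes tested 53.4% were lower, and at an unadjusted p under 0.05 19.9% were higher beside the 12% lower given above. With its normal prior, DESeq2 called 6 of 10 alveolar type II genes lower and Krt18, Foxj1, Ccdc153, Tekt4, Gng13, Ttr, Mbp, Lypd2 and Chad higher, and beside the members it called Cyp4b1 lower. Of all genes tested, this setting called 9.61% higher and 0.909% lower. Without a prior it called 8 alveolar type II genes and Cldn18 lower. For other airway secretory genes, 8 of 14 were lower and 6 higher, with 2 lower and 3 higher at an unadjusted p under 0.05. Cbr2, a club cell carbonyl reductase, was counted 481, 57 and 26 times in Bahd1-WT, against 25, 131 and 33 times in Bahd1-KO. Aldh3a1, an aldehyde dehydrogenase, was higher in every Bahd1-KO library than in every Bahd1-WT library, at a log2 fold change of 0.93 (SE 0.32). The list summed to 12.8, 3.94 and 2.37 CPM in Bahd1-WT and 4.11, 6.49 and 4.63 in Bahd1-KO, so Bahd1-WT replicate 3 was the lowest library.

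The families of the members held genes of both directions. In the mucin family 8 of 10 tested were lower and 2 higher, 4 of the lower with an unadjusted p under 0.05 (Muc5b, Muc4, Muc16 and Muc15), and Muc3a, with the most counts, had a log2 fold change of 0.45 (SE 0.30). In the BPI fold family 7 of 10 were lower, of which 1 had an unadjusted p under 0.05. Bpifa6 had 642 counts in Bahd1-WT replicate 1, 43 in Bahd1-KO replicate 3 and at most 2 in each other library. In the SEC14-like family 2 of 5 were lower and 3 higher, with 1 lower and 2 higher at an unadjusted p under 0.05, and Sec14l1 had a log2 fold change of 0.62 (SE 0.20). In the secretoglobin family 3 of 4 were lower, and the 2 members alone had an unadjusted p under 0.05.

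Markers of alveolar type II cells also were highest in Bahd1-WT replicate 1. Of 10 alveolar type II genes 9 were lower, 8 of them with an unadjusted p under 0.05. Sftpa1, Sftpb, Sftpd, Lamp3, Cxcl15 and Lyz1 passed the filter on low counts only with their Bahd1-WT counts, so these counts are a description too. In 9 of the 10, Bahd1-WT replicate 1 was at least 4-fold replicate 3. Sftpa1, a surfactant protein, was counted 1908, 271 and 16 times in Bahd1-WT, against 0, 1 and 1 times in Bahd1-KO. The exception was Abca3, a lipid transporter, at 42.2, 29.1 and 37.8 CPM in Bahd1-WT and 43.5, 77.1 and 68.7 for Bahd1-KO, which was higher in Bahd1-KO by a log2 fold change of 0.79 (SE 0.24) with an unadjusted p of 0.0102 in edgeR's quasi-likelihood test. The whole list summed to 129.9, 45.1 and 39.9 CPM for Bahd1-WT and to 44.2, 78.7 and 69.9 for Bahd1-KO, so all 3 Bahd1-KO libraries were above Bahd1-WT replicate 3. Without Abca3, a choice made after its values were seen, the list summed to 87.6, 15.9 and 2.06 CPM in Bahd1-WT, against 0.6435, 1.64 and 1.24 in Bahd1-KO. The part of lung cell transcripts in the levels of the 9 genes was not tested. Alveolar type I genes (3 of 4 lower) and alveolar macrophage genes (3 of 5 lower) had 1 gene each that was lower at an unadjusted p under 0.05 (Cldn18 and Chil3) and their highest sums in Bahd1-WT replicate 1, at 15.6 and 5.40 CPM. The macrophage marker Marco had 5, 0 and 4 counts in Bahd1-WT and 1, 8 and 5 in Bahd1-KO.

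General epithelial genes, 9 of 12 lower, had the order replicate 1, 2, 3 in Bahd1-WT in 10 of 12. They summed to 12.5, 7.48 and 6.23 CPM in Bahd1-WT and 7.72, 9.68 and 9.21 in Bahd1-KO. Motile cilia genes, 8 of 10 higher, summed to between 45.2 and 62.0 CPM, and Foxj1, the regulator of motile cilia, was among them at a log2 fold change of 2.56 (SE 0.54). Ccdc39, with the most counts of that list, was lower in every Bahd1-KO library than in every Bahd1-WT library, at -0.72 (SE 0.21). Choroid plexus genes, 4 of 6 lower, summed to 304 to 1091 CPM, of which Ttr, its carrier of thyroid hormone, made up 213 to 1018 CPM. Ttr was higher in every Bahd1-KO library than in every Bahd1-WT library. Kl and Prlr were lower in every Bahd1-KO library, at log2 fold changes of -0.40 (SE 0.16) and -0.62 (SE 0.21). Nasal and olfactory genes, 4 of 5 higher, had Omp, a marker of olfactory neurons, at 364, 11 and 5 counts in Bahd1-WT and 379, 338 and 8 in Bahd1-KO. Airway transcription factors were lower in 2 of 5, immunoglobulin genes in 3 of 4 and brain cell genes in 5 of 9. Of all these lists, the counts at an unadjusted p under 0.05 were 1 lower and 1 higher for general epithelial genes, 1 and 5 for motile cilia, 2 and 1 for choroid plexus, 0 and 1 for nasal and olfactory genes, airway factors and immunoglobulins, and 1 and 3 for brain cells.

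**Figure D5:**
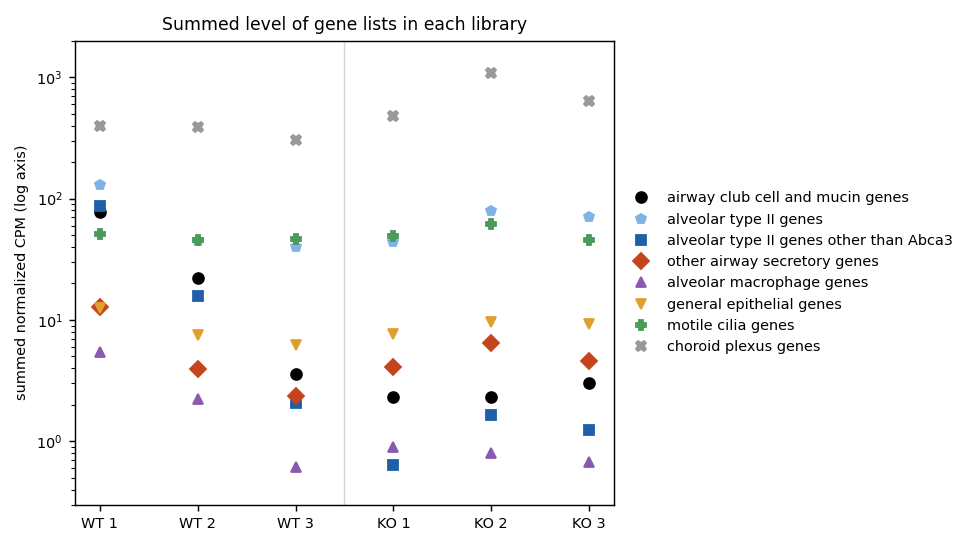
Summed CPM of gene lists in each library, on a log axis, with the alveolar type II genes drawn whole and without Abca3, which was left out after its values were seen. The 9 airway genes reach 77.5 CPM in Bahd1-WT replicate 1, the whole alveolar type II list 129.9 there against 44.2 to 78.7 in Bahd1-KO, and motile cilia genes stay between 45.2 and 62.0 CPM in all 6 libraries.

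The genes whose levels over the 6 libraries were most like Scgb1a1 were ranked by Pearson r of log2(CPM + 0.1) over 6 libraries, among 16622 genes. The first was Gm38162 (r = 0.995), followed by Gm45793 (r = 0.992), Irak3 (r = 0.991), Sftpa1 (r = 0.988) and Gimap4 (r = 0.988). Then came Gm10044, Gm48062, Gm37206, Gm38057 and A230057D06Rik, with r of 0.983 to 0.985. These values share their 6 libraries and the genotype split, and r ignores the size of change. The SD of log2(CPM + 0.1) was 3.28 for Sftpa1 and 0.29 for Irak3. Of the members, Sec14l3 ranked 89 (r = 0.952), Muc16 155, Scgb3a2 316, Bpifa1 765, Muc5b 1206 and Cyp2f2 1763, while Muc4 and Pigr stayed under 50 counts in every library and were not ranked.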

How the data were processed

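Read counts came from one side of the brain of 3 Bahd1-WT and 3 Bahd1-KO mice. The authors deposited whole-number counts per gene without normalization. The submitters' processing notes name cutadapt 1.11, STAR 2.5.0a, featureCounts 1.4.6-p3, R 3.5.1 and DESeq2 1.20.0 on GRCm38. The supplementary methods also name Tophat2, and the sources differ on the sequencer and on single or paired reads. Members and lists were chosen with earlier results of these data known. The genes named were the 9 members, up to 4 per list with the most counts, Bahd1, and the 10 most like Scgb1a1. Sftpb, Sftpd, Lamp3, Cxcl15, Lyz1, Ccdc153, Tekt4, Lypd2 and Chad were named outside this rule, after their values were seen.

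Genes with a summed count of at least 10 were kept, 23975 of 53801. edgeR 4.0.16 (TMM, quasi-likelihood test, Benjamini-Hochberg) in R 4.3.3 was fitted with genotype as the only factor, and calls needed an adjusted p under 0.05 and at least 2-fold. CPM use TMM-scaled library sizes. DESeq2 1.42.0, other scalings and filters, samples left out, the replicate block and a GC and length offset were alternatives. Ratios between libraries have exact 95% intervals on counts, and depth was 42297150 to 93557948 counts. Positions come from GENCODE M21 (GRCm38) and promoters from RefSeq (GRCm38.p6). Scripts were tested on simulated data. The embryonic brains were not analysed here.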

Additional observations from a re-analysis of the deposited data

How the results depend on the processing

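The direction of all 9 genes was lower in every alternative that tested them, except that Cyp2f2 turned to 0.91 without Bahd1-WT replicates 1 and 2, an alternative chosen after seeing the data. The number of genes called was 0 in edgeR's main setting, 2 with total counts, 7 with DESeq2 without a prior, 6 with its normal prior and 9 when genes with at least 1 count were kept. With edgeR's stricter filterByExpr filter, 3 of the 9 genes were tested and 0 called, where 1 of 18627 genes tested was called lower. DESeq2 size factors or upper-quartile factors in edgeR also gave 0. Leaving out 1 library gave 0 to 3 called genes. Genes lower in every Bahd1-KO library were 5, and 3 after the GC and length offset. They were 5 to 9 when 1 library was left out, which can only keep or raise the count. The cause of these changes was not tested.

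With the replicate number as a block (replicate block), 1 gene, Scgb1a1, was called, and 1 with the GC and length offset and the block. For each gene tested, the deviation of log2 CPM from the mean of its genotype was taken in each sample. These deviations correlated at -0.155, -0.150 and -0.005 between same-numbered samples, and at a mean of 0.0516 between other pairs. Within a genotype the deviations are tied together through the mean, so the values are not independent. The labels give only a replicate number, and no pairing follows. Depth limits Muc5b, Muc4, Muc16 and Pigr, whose Bahd1-KO counts were at or under 3 in each library.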
